A study of Homo sapiens with 5 samples.

Results

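Proteins that enter the secretory pathway fold in the endoplasmic reticulum (ER), and the genes described here encode the chaperones, disulfide isomerases, thiol oxidases and prolyl isomerases that fold them. The 41 genes were chosen by name from their known function, with earlier results of these data known. Of these, 39 had a probe set that carries their symbol alone, out of 19775 such genes on the array. PDIA5 and TXNDC5 were matched only by probe sets that carry a second symbol and are not described further. Each gene was represented by the probe set with the highest mean over the 5 arrays, and 38 of the 39 reached a level of 6 on at least 1 array. The level is the log2 of the deposited intensity. The exception was SIL1, a nucleotide exchange factor of BiP, whose highest level was 5.67.

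The 5 arrays held RNA from PC-3, an established line of human prostate cancer cells that grows without androgen. Flat culture under normal conditions (2D) and spheroid culture, in which cells grow as 3-dimensional clusters, gave 1 array each, and neither is labelled as carrying a hairpin. A further 3 arrays came from PC-3 cells expressing a short hairpin RNA, against GFP as the control (shGFP) or against TRIB1 by 1 of 2 different hairpins (shTRIB1-1 and shTRIB1-2). TRIB1 is a pseudokinase adaptor of the ubiquitin ligase COP1, and the study compared 2D with spheroid growth and control with TRIB1 hairpins. All samples are described as untreated, and the labels give the same protocol of growth in dishes for each, the spheroid sample included. The sources used here give neither the vector nor the number of clones behind each hairpin line. The 2D, spheroid and shGFP conditions have 1 array each, so the 2 arrays with hairpins against TRIB1 are the only ones that can be averaged. Nothing in the labels says that they came from separate cultures beyond the hairpin, and their spread may be technical.

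The ER lumen is crowded, oxidising and rich in calcium. A nascent chain that enters it is bound by the HSP70 protein BiP (HSPA5), whose cycle is driven by J proteins and by exchange factors, while chains with N-linked glycans pass through calnexin and calreticulin, and GRP94 (HSP90B1) matures a smaller set of clients. Disulfide isomerases form and shuffle cysteine bonds, ERO1 oxidases recharge them, and FKBP and cyclophilin enzymes turn the peptide bonds before proline. When unfolded chains accumulate, the sensors IRE1, PERK and ATF6 raise many of these genes through the unfolded protein response (UPR), and secretory epithelia such as that of the prostate use this machinery heavily.

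Several facts of the series bear on every comparison below. The signal of TRIB1 itself did not show a clear depletion, at 11.97 with shGFP, 11.91 with shTRIB1-1 and 11.76 with shTRIB1-2. It was 11.04 in 2D and 11.23 in spheroids, below every hairpin array, so the arrays are called by their labels. The 5′ to 3′ ratio of the actin control probe sets lay between 0.436 and 0.445 on the 3 hairpin arrays and was 0.184 in 2D and 0.131 in spheroids. A difference between a hairpin array and the 2D or spheroid array therefore crosses these sets of arrays, and set and condition cannot be told apart. The epithelial markers KRT8, KRT18, KRT19 and EPCAM had levels of 9.39 to 13.19 on every array. The 6 blood, endothelial and fibroblast markers other than HBB stayed between 2.71 and 5.80. The blood marker HBB (6.15 to 6.25) and KLK3 (6.90 on every array), chosen as low or absent in PC-3, barely varied. Both lie above a level of 6, so reaching 6 does not by itself separate a transcript from background. In RNA from a whole culture, less transcript per cell and fewer cells with the transcript cannot be told apart.

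Many of these genes are known targets of the UPR through short promoter elements, and the promoters are shown because members with such an element are set apart below. RefSeq promoters on GRCh38.p14, from 250 bases before to 50 after the start of transcription, were given for 38 of the 41 listed genes. The ER stress element, CCAAT and CCACG separated by 9 bases of any kind, was searched on both strands and was found in the promoters of 8 members, against 0.0916% of all 27305 genes with a promoter, counting any start of a gene. These were HSPA5, HSP90B1, CRELD2, SERP1, CALR, CANX, PDIA6 and ERO1B. A second form, ATTGG and CCACG separated by 1 base, was found in HYOU1 and SDF2L1 and in 0.0696% of all genes. The UPR element TGACGTGG was found in HYOU1, DNAJC10, TXNDC5 and TXNDC11 and in 0.927% of genes, and in HYOU1 it overlaps the second form. CCAAT alone, which is part of the first element and, read on the other strand, of the second, was found in 25 members and in 39.7% of genes. The 250 bases before the start of HSPA5 (chr9:125241344-125241593, minus strand) hold 4 CCAAT boxes in either direction, and capitals mark these boxes and the second part of the element:
HSPA5: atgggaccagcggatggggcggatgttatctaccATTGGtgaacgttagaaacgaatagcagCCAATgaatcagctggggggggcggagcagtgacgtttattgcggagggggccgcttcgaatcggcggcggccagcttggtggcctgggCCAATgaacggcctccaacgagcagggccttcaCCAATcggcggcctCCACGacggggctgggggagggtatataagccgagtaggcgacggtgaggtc

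Apart from CANX, whose match lies partly past another of its starts, the stretches below hold the element with 15 bases on each side where the window allows, all before the start of transcription, on the strand of the gene. Capitals mark the fixed letters of the element, which reads CGTGG before ATTGG or CCAAT where it lies in reverse. HSP90B1 (chr12, plus strand) has a copy in each direction. HYOU1 (chr11, minus strand) has 2 copies of the second form.
HSP90B1, chr12:103930201-103930249, plus strand: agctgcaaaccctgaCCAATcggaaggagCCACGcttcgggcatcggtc
HSP90B1, chr12:103930306-103930354, plus strand: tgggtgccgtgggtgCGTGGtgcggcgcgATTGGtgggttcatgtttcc
CALR, chr19:12938369-12938417, plus strand: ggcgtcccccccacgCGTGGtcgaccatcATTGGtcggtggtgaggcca
CRELD2, chr22:49918539-49918587, plus strand: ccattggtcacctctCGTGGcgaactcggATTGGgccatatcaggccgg
PDIA6, chr2:10812838-10812886, minus strand: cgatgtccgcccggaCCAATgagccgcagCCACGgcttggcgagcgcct
SERP1, chr3:150546695-150546743, minus strand: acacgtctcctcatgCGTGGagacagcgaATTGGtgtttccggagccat
ERO1B, chr1:236282168-236282208, minus strand: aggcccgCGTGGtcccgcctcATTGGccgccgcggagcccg
SDF2L1, chr22:21642099-21642139, plus strand: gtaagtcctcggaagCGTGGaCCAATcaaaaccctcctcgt
HYOU1, chr11:119057365-119057405, minus strand: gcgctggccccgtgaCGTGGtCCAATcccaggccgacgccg
HYOU1, chr11:119057259-119057299, minus strand: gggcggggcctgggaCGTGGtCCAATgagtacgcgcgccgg

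Over the 5 arrays, the most common pattern among the members was a peak on the shGFP array. Of 38 members, 22 were highest on that array, against 15.2% of all 10843 genes. They include HSPA5, HYOU1, DNAJB9, DNAJB11, SDF2L1, HSP90B1, MANF, CRELD2, CALR, CANX, PDIA3, PDIA4 and PDIA6. The spheroid array was the highest for 6 members, DNAJC3, TXNDC12, PRDX4, FKBP7, FKBP10 and FKBP11 (24.9% of all genes), and the lowest for 9 (28.1%). The 2D array was the lowest for 10 members (21%), among them HSPA5, DNAJB9, ERP44, QSOX1, FKBP14 and PPIC. The choice of the flat reference, shGFP or 2D, therefore sets the direction of several of the differences given below.

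**Figure D1:**
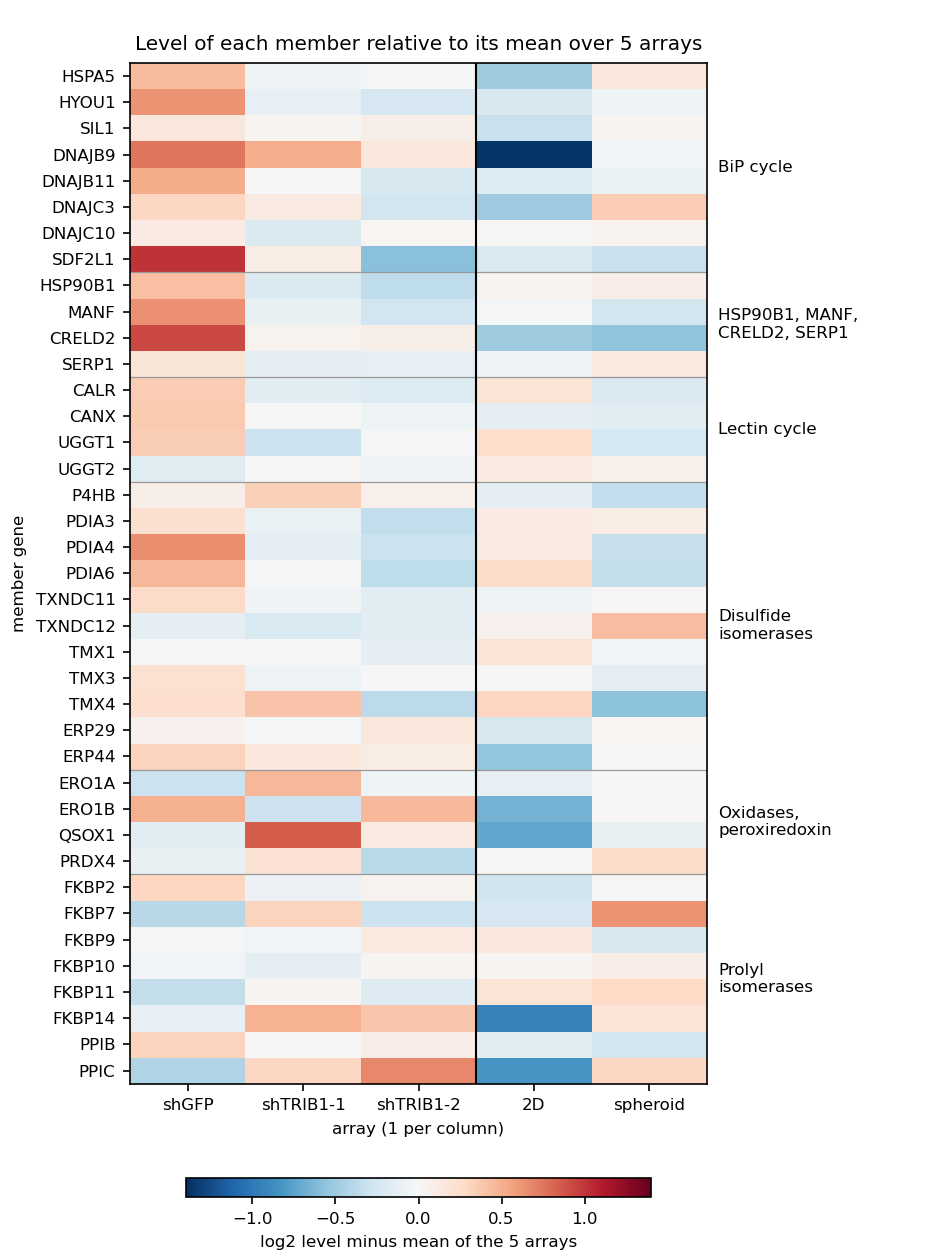
Level of each of the 39 members on each of the 5 arrays (columns) minus its own mean over the 5 arrays, in log2 units, with rows grouped by role and a line between hairpin arrays and the others. The shGFP column is red for most chaperones, with 22 of 38 tested members highest there, whereas FKBP14 and PPIC are blue in 2D and red on both shTRIB1 arrays.

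Chaperones and lectins were lower on both shTRIB1 arrays than on the shGFP array, while 2 prolyl isomerases were higher. The oxidases ERO1A and, on the probe set used here, QSOX1 were higher by unequal amounts. Of 38 members tested, 24 were lower on both arrays, against 34.7% of the 10522 genes tested, and 7 were higher on both, against 25%. By 0.5 or more on the log2 scale, 7 members were lower on both arrays (1.69% of all genes) and 2 were higher (2.5%). The first 7 were HYOU1, DNAJB11, SDF2L1, HSP90B1, MANF, CRELD2 and PDIA4, and the 2 were FKBP14 and PPIC. These counts rest on both hairpins, since shTRIB1-2 alone gave 13 lower members and shTRIB1-1 alone gave 5 higher ones. None differed 2-fold on both, against 0.361% of all genes higher and 0.0855% lower. The median over members was -0.28, with -0.30 for shTRIB1-1 and -0.26 for shTRIB1-2, beside -0.027 over all genes. A limma fit with a trend on intensity, adjusted by Benjamini-Hochberg over 10522 genes, called 0 members and 0 genes. The smallest adjusted p among members was 0.951, at 1 residual degree of freedom, and on simulated arrays with the spread of the shTRIB1 arrays the same fit called none of the changed genes. At an unadjusted p under 0.05 it held 9 members, 8 lower and 1 higher, against 3.38% of all genes.

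The BiP cycle was lower on the shTRIB1 arrays on the probe sets used here. All 7 tested members were below shGFP on both arrays (34.7% of all genes), with a median of -0.48. HSPA5, the main ER chaperone, had levels of 13.65 with shGFP, 13.15 with shTRIB1-1, 13.18 with shTRIB1-2, 12.71 in 2D culture and 13.37 in spheroids. Both shTRIB1 arrays thus lay between the shGFP and 2D arrays, and the mean difference from shGFP was -0.48 ± 0.023 (SD, n = 2), with an unadjusted limma p of 0.0084 and an adjusted p of 0.951. Against 2D the same arrays were higher, by 0.44 and 0.47. A second HSPA5 probe set differed from shGFP by -1.21 and -0.87, past 0.5 with both hairpins, so whether HSPA5 counts among the members lower by 0.5 depends on the probe set.

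SDF2L1, a partner of BiP and the J protein DNAJB11 that keeps clients soluble, had the lowest hairpin difference of all members. Its levels were 10.30 with shGFP, 9.40 with shTRIB1-1, 8.71 with shTRIB1-2, 9.08 in 2D culture and 8.98 in spheroids. The shGFP array stood alone at the top, and the 2 shTRIB1 arrays lay on either side of 2D. It differed from shGFP by -0.91 with the first hairpin and -1.59 with the second. The mean was -1.25 ± 0.49 (SD, n = 2), or 2.38-fold, and the hairpins differed from each other more than for most chaperones.

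HYOU1 (GRP170) exchanges nucleotide on BiP and binds unfolded chains itself. It was at 8.88 with shGFP, 8.14 with shTRIB1-1, 8.01 with shTRIB1-2, 8.03 in 2D culture and 8.19 in spheroids. Only the shGFP array was high, and the other 4 lay close together. The mean difference from shGFP was -0.81 ± 0.090 (SD, n = 2). DNAJB11, a J protein that hands clients to BiP, was at 11.43 with shGFP, 10.90 with shTRIB1-1, 10.68 with shTRIB1-2, 10.72 in 2D culture and 10.82 in spheroids, again with only the shGFP array high, and its differences from shGFP were -0.52 and -0.75.

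The other J proteins were less uniform. DNAJB9, which turns BiP against IRE1 and serves in ER degradation, was at 10.75 with shGFP, 10.50 with shTRIB1-1, 10.14 with shTRIB1-2, 8.62 in 2D culture and 9.95 in spheroids. The 2D array was far below the other 4, so the mean difference of the shTRIB1 arrays was -0.42 ± 0.25 (SD, n = 2) from shGFP, while they were higher than 2D by 1.88 and 1.52. DNAJC3 (P58IPK) differed from shGFP by -0.17 and -0.54, and DNAJC10, a J protein that also reduces disulfides, by -0.32 and -0.089. On their other probe sets with shTRIB1-1, DNAJB9 gave -0.29 and 0.058, and DNAJC3 gave 0.082, -0.024 and 0.0050. With shTRIB1-2 these probe sets were all lower than shGFP.

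GRP94 and the small stress-linked partners gave the lowest subfamily median, -0.77, with 4 of 4 lower on both arrays (34.7% of all genes). HSP90B1 was at 11.31 with shGFP, 10.68 with shTRIB1-1, 10.53 with shTRIB1-2, 10.92 in 2D culture and 10.97 in spheroids. On this probe set both shTRIB1 arrays were below every other array, and the differences from shGFP were -0.63 and -0.78. The other probe set gave similar differences from shGFP, -0.61 and -0.79, but placed both shTRIB1 arrays above 2D, by 0.48 and 0.30. Its probe sets with 1 symbol both end in _x_at, which marks probes shared with similar sequences such as its pseudogenes, and the value is uncertain for that reason.

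MANF, a secreted protein that is held in the ER by BiP, was at 12.14 with shGFP, 11.39 with shTRIB1-1, 11.22 with shTRIB1-2, 11.47 in 2D culture and 11.24 in spheroids. The shGFP array was again the highest and the mean difference was -0.83 ± 0.12 (SD, n = 2), while the shTRIB1, 2D and spheroid arrays lay within a narrow band. CRELD2, a secreted protein with isomerase-like activity, was at 10.84 with shGFP, 9.97 with shTRIB1-1, 10.01 with shTRIB1-2, 9.42 in 2D culture and 9.36 in spheroids. The shTRIB1 arrays were intermediate, with differences from shGFP of -0.87 and -0.84 and from 2D of 0.55 and 0.59. CRELD2 was the 1 member at least 0.5 below shGFP and at least 0.5 above 2D on both arrays. SERP1 (RAMP4), a small protein of the translocon, differed from shGFP by -0.31 and -0.29.

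In the lectin cycle 3 of 4 members were lower than shGFP on both arrays (34.7% of all genes), with a median of -0.46. The soluble lectin calreticulin (CALR) was at 10.46 with shGFP, 9.96 with shTRIB1-1, 9.92 with shTRIB1-2, 10.29 in 2D culture and 9.90 in spheroids, so both shTRIB1 arrays lay below both flat references. Its differences from shGFP, -0.50 and -0.54, were just short of the threshold with 1 hairpin, as were those of PDIA6 and of the HSPA5 probe set with the highest mean. This CALR probe set ends in _x_at, and its others gave -0.74 and -0.77, and -0.37 and -0.43. Other PDIA6 probe sets gave -0.60 and -0.76, -0.48 and -0.62, and -0.46 and -0.63. For both genes, being lower by 0.5 on both arrays thus depends on the probe set. The membrane lectin calnexin (CANX) was at 12.31 with shGFP, 11.93 with shTRIB1-1, 11.87 with shTRIB1-2, 11.81 in 2D culture and 11.78 in spheroids, with the shGFP array above 4 similar ones. Its mean difference from shGFP was -0.41 ± 0.046 (SD, n = 2), and it was -0.98 without probe sets ending in _s_at or _x_at.

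UGGT1 and UGGT2 are glucosyltransferases that send misfolded glycoproteins back to the lectins, and the sign of the UGGT2 difference turned with the probe set. UGGT1 was at 10.31 with shGFP, 9.67 with shTRIB1-1, 9.94 with shTRIB1-2, 10.22 in 2D culture and 9.72 in spheroids, with the 2 shTRIB1 arrays and the spheroid array below both flat references. On another UGGT1 probe set the spheroid array was above shGFP by 0.78. UGGT2 was at 7.36 with shGFP, 7.55 with shTRIB1-1, 7.49 with shTRIB1-2, 7.65 in 2D culture and 7.61 in spheroids, and its differences from shGFP were 0.19 and 0.13. The other UGGT2 probe sets that reached a level of 6 gave 0.087 and -0.48, and 0.36 and -0.44, and the median over all its probe sets gave a mean of -0.097.

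Among the disulfide isomerases, the soluble PDIA3, PDIA4 and PDIA6 were lower and most of the others were close to shGFP. Of 11 members, 7 were lower on both shTRIB1 arrays (34.7% of all genes) and 0 were higher on both (25%). By 0.5 or more 1 was lower on both (1.69%), and the median was -0.22. PDIA4 (ERp72) was at 11.27 with shGFP, 10.49 with shTRIB1-1, 10.32 with shTRIB1-2, 10.73 in 2D culture and 10.30 in spheroids. Both shTRIB1 arrays and the spheroid array were below both flat references, and the mean difference from shGFP was -0.87 ± 0.11 (SD, n = 2), or 1.82-fold, with an unadjusted limma p of 0.0244 and an adjusted p of 0.951.

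PDIA6 (P5), which limits the activity of IRE1, was at 12.03 with shGFP, 11.53 with shTRIB1-1, 11.20 with shTRIB1-2, 11.82 in 2D culture and 11.23 in spheroids, and PDIA3 (ERp57), the partner of the lectins, at 12.12 with shGFP, 11.80 with shTRIB1-1, 11.55 with shTRIB1-2, 12.01 in 2D culture and 12.00 in spheroids. PDIA3 differed from shGFP by -0.32 and -0.57, and on its other probe sets by -0.50 and -0.60, and by -0.60 and -0.66. On the probe sets used here, the shTRIB1-2 array was the lowest for both PDIA6 and PDIA3. P4HB, the founding isomerase (PDI) and a subunit of prolyl 4-hydroxylase, did not follow them. It was at 10.98 with shGFP, 11.23 with shTRIB1-1, 10.97 with shTRIB1-2, 10.76 in 2D culture and 10.55 in spheroids, and its differences from shGFP were 0.25 and -0.013. Other P4HB probe sets gave 0.55 and 0.11, and 0.20 and -0.12. Against 2D those gave 1.14 and 0.705, and 1.05 and 0.73, beside 0.47 and 0.21 on the probe set used here. The spheroid array differed from shGFP by -0.43 on the probe set used, and by -0.97 and -0.985 on the others. The thiol retention factor ERP44 differed by -0.16 and -0.20, the cysteine-poor ERP29 by -0.093 and 0.092, TXNDC11 by -0.31 and -0.41, and TXNDC12 by -0.082 and -0.028. Another ERP44 probe set that reached a level of 6 gave opposite signs, 0.38 and -0.39.

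The membrane-bound TMX isomerases were mixed. TMX1 differed from shGFP by 0.011 and -0.10 and TMX3 by -0.29 and -0.21. TMX4 had opposite signs with the 2 hairpins, 0.16 and -0.60, and the largest SD of any member, 0.54.

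The oxidases depended on which hairpin was used. ERO1A, the main oxidase that recharges PDI, was at 10.77 with shGFP, 11.54 with shTRIB1-1, 11.02 with shTRIB1-2, 10.96 in 2D culture and 11.08 in spheroids. The shTRIB1-1 array stood out, with differences from shGFP of 0.77 and 0.25. QSOX1, a secreted and Golgi sulfhydryl oxidase, was at 8.13 with shGFP, 9.14 with shTRIB1-1, 8.41 with shTRIB1-2, 7.56 in 2D culture and 8.19 in spheroids, again with shTRIB1-1 highest, at differences of 1.01 and 0.28. Its other probe sets gave differences of 0.51 and 0.00, and of -0.82 and -0.38, so its direction depends on the probe set.

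ERO1B, the second ERO1 oxidase, went the other way, at 6.10 with shGFP, 5.32 with shTRIB1-1, 6.06 with shTRIB1-2, 4.95 in 2D culture and 5.61 in spheroids. It was close to the level of 6 or below it on every array, so its differences of -0.79 and -0.041 rest on a weak signal. The peroxiredoxin PRDX4, which uses hydrogen peroxide to oxidise PDI, had opposite signs, 0.30 and -0.28. In this subfamily the spread between the hairpins was about as wide as the differences themselves.

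Of the 8 prolyl isomerases 4 were higher than shGFP on both shTRIB1 arrays (25% of all genes), 2 of them by 0.5 or more (2.5%). A further 2 were lower on both (34.7%) and 2 had mixed signs. PPIC (cyclophilin C) was at 9.90 with shGFP, 10.61 with shTRIB1-1, 10.99 with shTRIB1-2, 9.49 in 2D culture and 10.61 in spheroids. Both shTRIB1 arrays were at or above every other array, and the mean difference from shGFP was 0.90 ± 0.27 (SD, n = 2), or 1.86-fold, the highest of all members, with an unadjusted limma p of 0.0732 and an adjusted p of 0.951. FKBP14, an isomerase of collagen in the ER, was at 9.40 with shGFP, 10.01 with shTRIB1-1, 9.91 with shTRIB1-2, 8.59 in 2D culture and 9.70 in spheroids. The shTRIB1 arrays were the highest and 2D the lowest, and the mean difference from shGFP was 0.55 ± 0.069 (SD, n = 2).

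PPIB (cyclophilin B), a partner of collagen hydroxylation and of BiP, differed from shGFP by -0.30 and -0.23 and FKBP2 by -0.39 and -0.25. FKBP7 differed by 0.69 and 0.080, FKBP11 by 0.37 and 0.15, FKBP9 by -0.004 and 0.17 and the collagen chaperone FKBP10 by -0.086 and 0.083. The median of the 8 was 0.17, and the sign of FKBP7 turned, to -0.051, without probe sets ending in _s_at or _x_at.

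With the 2D array as the reference, the lower chaperone levels on the shTRIB1 arrays were mostly gone. Of 38 members, 13 were lower than 2D on both arrays (38.1% of all genes) and 15 were higher on both (33.8%). By 0.5 or more on both, 0 were lower (8.77%) and 6 were higher (7.43%). By 2-fold 0 were lower (2.24%) and 3, DNAJB9, FKBP14 and PPIC, were higher (2.22%). The median was -0.024, beside -0.015 over all genes, and it was 0.0092 with each array centred on its median. With the mean of shGFP and 2D as the reference, 1 member was lower by 0.5 or more on both arrays. The 6 were DNAJB9, CRELD2, ERP44, QSOX1, FKBP14 and PPIC. ERP44 was higher than 2D by 0.5 on both arrays only on the probe set used here. HSPA5 and P4HB were so only on other probe sets. The comparisons with shGFP and with 2D share the shTRIB1 arrays, and TRIB1 itself was higher on both of these than in 2D.

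ERP44, which retrieves ERO1 and unassembled clients from the early secretory pathway, was at 10.65 with shGFP, 10.49 with shTRIB1-1, 10.45 with shTRIB1-2, 9.80 in 2D culture and 10.34 in spheroids, with the 2D array the lowest. On its other probe set that reached a level of 6, it was higher than 2D by 0.98 and 0.21. FKBP14 was higher than 2D by 1.42 and 1.32 and PPIC by a mean of 1.31 ± 0.27 (SD, n = 2). QSOX1 was higher by 1.58 and 0.85. These 3 genes and ERO1A were the 4 members with both shTRIB1 arrays above both flat references, against 15.9% of all 10668 genes. For QSOX1 this held only on the probe set used here.

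Below both flat references on both shTRIB1 arrays were 9 of 38 members, against 21.7% of all genes, a share near the background. They were HSP90B1, MANF, SERP1, CALR, UGGT1, PDIA3, PDIA4, PDIA6 and TXNDC12, with HSP90B1 above 2D on its other probe set. SERP1 differed from 2D by only -0.086 and -0.062. Its other probe sets gave 0.54 and 0.41, 0.29 and 0.12, and -0.60 and -0.055, so its place here depends on the probe set. On the probe sets used here, the lectin-linked and disulfide genes among them differed from 2D by modest amounts. PDIA6 differed by -0.28 and -0.61, UGGT1 by -0.55 and -0.28, PDIA3 by -0.21 and -0.45, and CALR by -0.33 and -0.37. Other UGGT1 probe sets gave -1.24 and -0.66, -1.40 and -1.08, -0.27 and -0.032, and -0.20 and -0.047. Other PDIA3 probe sets gave 0.043 and -0.056, and -0.58 and -0.63. For both genes, being lower than 2D by 0.5 on both arrays depends on the probe set. A further 9 members lay between shGFP and 2D on both arrays, with shGFP above and 2D below (6.36% of all genes). They were HSPA5, DNAJB9, DNAJC3, CRELD2, CANX, ERP44, ERO1B, FKBP2 and PPIB. With shGFP and 2D as 2 control arrays against the 2 shTRIB1 arrays, limma called 0 members and 0 of 10668 genes, the smallest adjusted p being 0.686. At an unadjusted p under 0.05 this fit held 5 members, CALR, PDIA3 and PDIA6 as lower and PPIC and FKBP14 as higher, against 6.11% of all genes. In that fit PPIC differed by 1.10 (SE 0.24, adjusted p = 0.686).

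**Figure D2:**
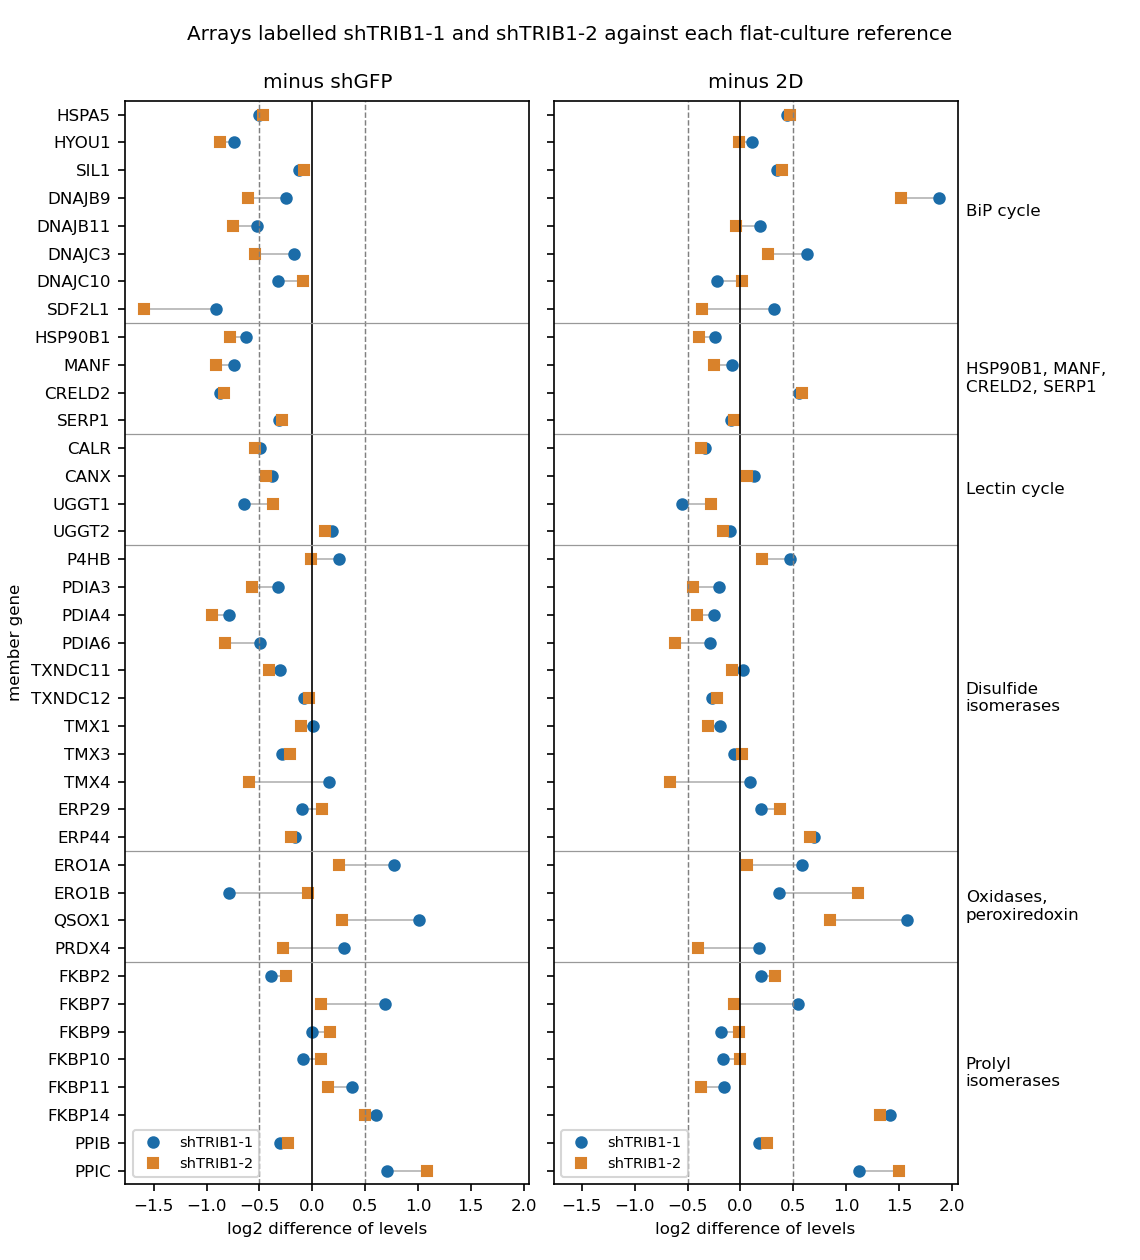
Log2 difference of each member on the shTRIB1-1 (circles) and shTRIB1-2 (squares) arrays from shGFP (left) and from 2D (right), with a grey line joining the 2 arrays and dashed lines at 0.5 in each direction. The chaperones at the top lie left of 0 against shGFP, with 24 of 38 tested members lower on both arrays, and scatter around 0 against 2D, while PPIC and FKBP14 lie right of 0 in both panels.

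The spheroid array was compared with the 2D array to describe how levels differed between them. The J proteins DNAJB9 and DNAJC3, 3 prolyl isomerases and HSPA5 were higher in the spheroid array, TMX4 and PDIA6 were lower, and the median over members was near 0. Of 37 members tested, 21 were higher (47.3% of 10570 genes) and 16 were lower (50.9%). By 0.5 or more 8 were higher (15.1%) and 2 were lower (15.7%), and at 2-fold 3 were higher (5.05%) and 0 were lower (5.23%). The count of lower members was 5 with the median over the probe sets of each gene and 4 without probe sets ending in _s_at or _x_at. The median was 0.056, beside -0.0083 over all genes. With 1 array per condition these differences have no replicate check. The spheroid array also had the lowest control ratios, with a GAPDH 5′ to 3′ ratio of 0.763 against 0.895 in 2D and an actin ratio of 0.131 against 0.184, and their part in these differences was not tested.

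The 8 higher members were DNAJB9, PPIC, FKBP14, DNAJC3, FKBP7, HSPA5, QSOX1 and ERP44. DNAJB9 led with a difference of 1.33, or 2.52-fold. HSPA5 differed by 0.66, from 12.71 to 13.37, and its second probe set by 1.25. DNAJC3, a J protein that also binds unfolded chains, was at 9.35 in 2D, 10.21 in spheroids, 10.15 with shGFP and 9.98 and 9.61 with shTRIB1-1 and shTRIB1-2, which makes the spheroid array the highest of the 5.

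Among the prolyl isomerases PPIC differed by 1.12 (2.17-fold) and FKBP14 by 1.11 (2.16-fold). FKBP7 was at 6.44 in 2D, 7.30 in spheroids, 6.29 with shGFP and 6.98 and 6.37 with shTRIB1-1 and shTRIB1-2, so its difference of 0.87 starts from a level near 6, and it was 0.20 without probe sets ending in _s_at or _x_at. FKBP9 went the other way at -0.38, with levels of 9.09 in 2D, 8.71 in spheroids, 8.90 with shGFP and 8.90 and 9.07 with shTRIB1-1 and shTRIB1-2. FKBP10 (0.056), FKBP11 (0.080), FKBP2 (0.27) and PPIB (-0.089) differed by less than 0.5.

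TMX4, a membrane-bound isomerase, had the lowest difference in spheroids. It was at 10.39 in 2D, 9.52 in spheroids, 10.32 with shGFP and 10.49 and 9.73 with shTRIB1-1 and shTRIB1-2, a difference of -0.87. The shTRIB1-2 array was also low. PDIA6 differed by -0.59, UGGT1 by -0.50, PDIA4 by -0.44 and CALR by -0.39, so the disulfide isomerases and lectins had lower medians (-0.13 over 11 and -0.22 over 4) than the BiP cycle (0.16 over 7).

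ERO1A differed by 0.12 between spheroid and 2D, QSOX1 by 0.62 and PRDX4 by 0.24, all 3 higher. ERO1B was below the level of 6 on both arrays and was not tested. For UGGT2 the answer depended on the probe set. The one with the highest mean differed by -0.044 (0.0051 after centring each array), while 2 others that also reached a level of 6 differed by 1.46 and 1.26.

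Against the shGFP array the spheroid array had lower chaperone levels. Of 38 members 27 were lower (51.7% of 10556 genes) and 11 were higher (45.1%). By 0.5 or more 13 were lower (14.5%) and 4 were higher (13.9%), and by 2-fold 2 were lower (4.59%) and 1 was higher (4.77%), with a median of -0.29 beside -0.015 over all genes. CRELD2 differed by -1.48, SDF2L1 by -1.32, PDIA4 by -0.97 and MANF by -0.90. Higher by 0.5 or more were FKBP7 (1.01), PPIC (0.71), FKBP11 (0.61) and the small isomerase TXNDC12 (0.56). This comparison crosses the sets of arrays with different actin ratios, and its shGFP array is also the control of the hairpin comparison.

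HSPA5 and DNAJB9 lay above 2D and below shGFP in the spheroid array. In all, 12 of 38 members did so (11.2% of 10700 genes), whereas 15 were below both flat references (39.8%) and 10 above both (34.7%). The share below both is that of all genes and the share above both is under it. The 15 were SDF2L1, MANF, CRELD2, CALR, CANX, UGGT1, P4HB, PDIA3, PDIA4, PDIA6, TMX1, TMX3, TMX4, FKBP9 and PPIB. The 10 above both were DNAJC3, TXNDC12, ERO1A, QSOX1, PRDX4, FKBP7, FKBP10, FKBP11, FKBP14 and PPIC. QSOX1 was above both only on the probe set used here. On other probe sets UGGT1 and TMX1 were above shGFP, CANX was above 2D and FKBP11 was below 2D.

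**Figure D3:**
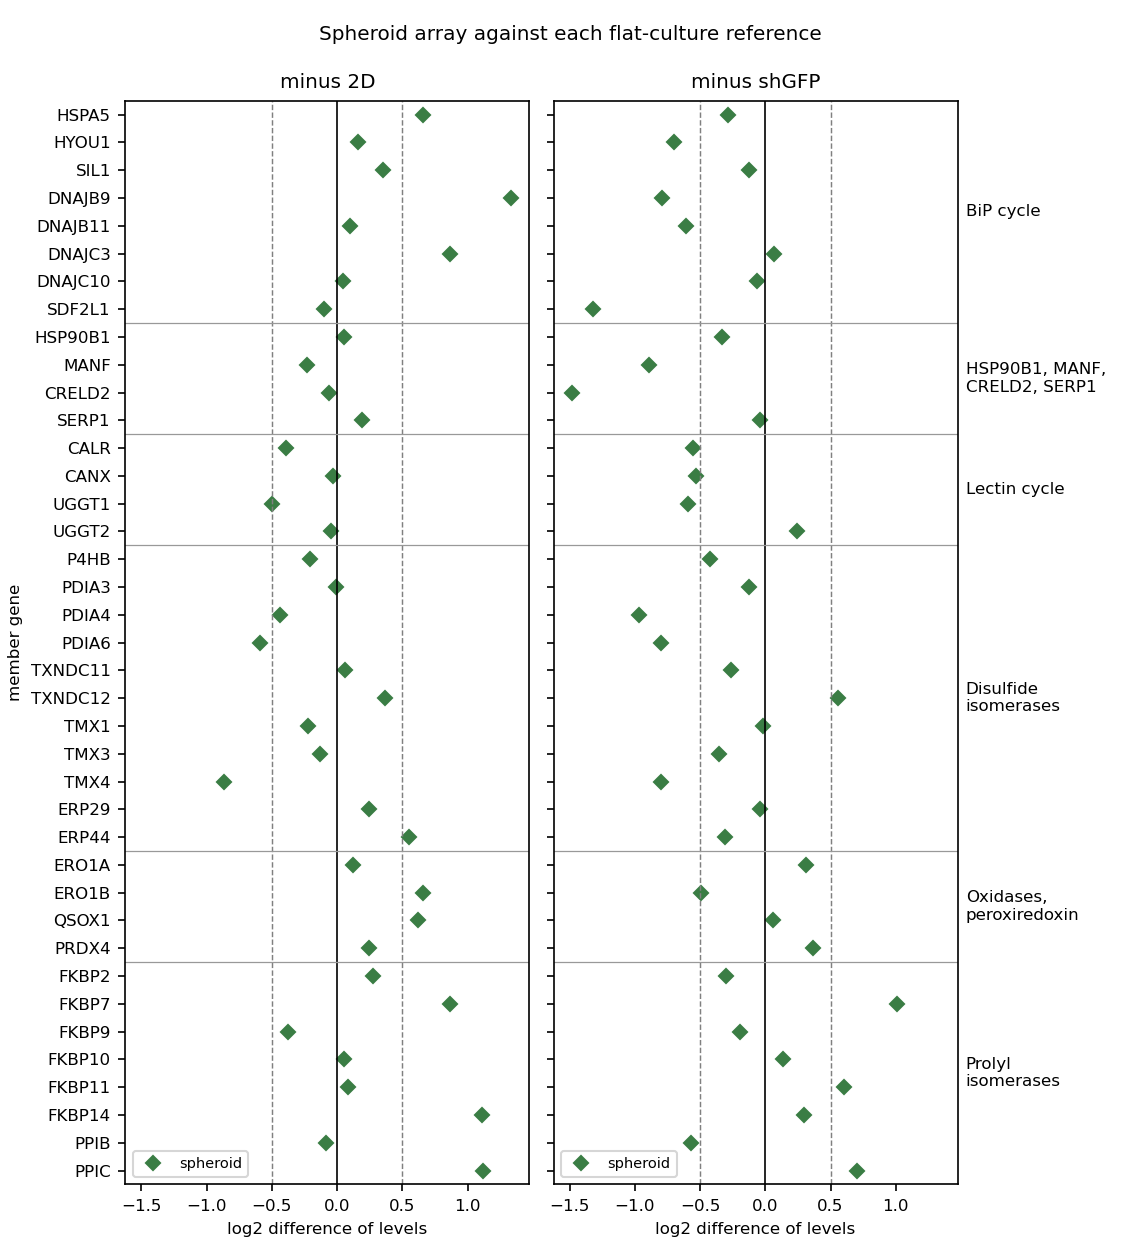
Log2 difference of each member on the spheroid array from 2D (left) and from shGFP (right), with dashed lines at 0.5 in each direction and 1 diamond per gene. DNAJB9 lies at 1.33 against 2D and at -0.79 against shGFP, while PPIC, FKBP7 and FKBP14 lie right of 0 in both panels.

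The 2 flat references differed from each other in these genes. Of 38 members 28 were higher on the shGFP array than on the 2D array (48.9% of 10450 genes) and 10 were lower (47.3%). By 0.5 or more 15 were higher (8.62%) and 1, FKBP11, was lower (9.52%), and at 2-fold 4 were higher (2.13%) and 0 were lower (2.11%). The median was 0.31, beside 0.00 over all genes. The hairpin, the line, its culture and the set of arrays cannot be told apart here.

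The BiP cycle differed most, with 7 of 7 higher (48.9% of all genes), 6 of them by 0.5 or more (8.62%), and a median of 0.86. DNAJB9 was higher by 2.13 (4.37-fold), CRELD2 by 1.42, SDF2L1 by 1.23 and ERO1B by 1.15, the 4 members past 2-fold. HSPA5 was higher by 0.94 and, on its second probe set, by 1.90. Disulfide isomerases (0.22), lectins (0.13) and prolyl isomerases (0.16) had smaller medians. For HSP90B1 the 2 probe sets gave 0.39 and 1.09. Tested members with a negative mean hairpin difference and a higher level with shGFP than in 2D were split by which quantity was larger. The gap between the references was the larger for HSPA5, HYOU1, DNAJB9, DNAJB11, DNAJC3, CRELD2, CANX, ERP29, ERP44, ERO1B, FKBP2 and PPIB. The hairpin difference was the larger in size for DNAJC10, SDF2L1, HSP90B1, MANF, SERP1, CALR, UGGT1, PDIA3, PDIA4, PDIA6, TXNDC11 and TMX3. The ERP29 mean of -0.0005 joins opposite signs. The gap is the larger wherever the mean of the shTRIB1 arrays lies above 2D, and both quantities share the shGFP array. The share over all genes was not counted.

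Several members kept 1 order against both references. Both shTRIB1 arrays and the spheroid array were all below shGFP and 2D for MANF, CALR, UGGT1, PDIA3, PDIA4 and PDIA6 (13.5% of all genes), and all above them for ERO1A, QSOX1, FKBP14 and PPIC (9.14%). For PPIC, these 3 arrays lay between 10.61 and 10.99, and the higher of the references was 9.90. QSOX1 kept its order only on the probe set used here, and on its others the spheroid array differed from shGFP by 0.00 and -0.50. On another UGGT1 probe set the spheroid array was above shGFP by 0.78. For PDIA3 the spheroid array differed from 2D by only -0.0076, and on another probe set shTRIB1-1 was above 2D by 0.043. With 4 and 6 of 38 members, both shares are close to those over all genes.

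The members with an ER stress element were set beside those without one. All 10 members with either form were lower than shGFP on both shTRIB1 arrays (34.7% of all genes), and 4 were lower by 0.5 or more (1.69%). Their means over the 2 arrays had a median of -0.59 and a range from -1.25 to -0.30. On a single array the difference could be smaller, as for ERO1B, a weak signal, at -0.041 with shTRIB1-2. Of 25 tested members with a promoter but no such element, 13 were lower on both (34.7% of all genes) and 6 higher on both (25%). By 0.5 or more, 3 of the 25 were lower on both (1.69%). Their means had a median of -0.18 and a range from -0.87 to 0.90. On the shGFP array all 10 members with an element were higher than on the 2D array (median 0.68), against 16 of 25 (median 0.23) and 48.9% of all genes. This comparison and the one with the shTRIB1 arrays share the single shGFP array. Against 2D the medians of the shTRIB1 arrays were 0.012 with an element and -0.023 without. In the spheroid array, 9 members with an element had a median of -0.030 against 2D and 25 without had 0.080. Against shGFP the spheroid array was lower for all 10 with an element (median -0.54) and for 16 of 25 without (median -0.19), beside 51.7% of all genes. By 0.5 or more, 6 of 10 and 7 of 25 were lower (14.5% of all genes). The lower levels against shGFP were thus not particular to the shTRIB1 arrays, and the same shGFP array is used. DNAJB9, DNAJB11, MANF and PDIA4, which also had high shGFP levels, hold no such letters in this window. No test of this split was made, and the matches are descriptions of sequence.

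The rest of the pathway is given from lists of genes chosen by function. Of 14 UPR sensors and transcription factors, 6 were lower than shGFP on both arrays (34.7% of all genes), 2 were higher on both (25%) and 0 differed by 0.5 or more on both, with a median of -0.085. DDIT3 (CHOP) had a mean difference of -0.70 and NFYA, a subunit of the CCAAT-binding factor, of -0.48. The value of NFYA joins opposite signs, with levels of 8.89 with shGFP, 7.34 with shTRIB1-1 and 9.47 with shTRIB1-2. At the upper end were the ATF6 protease MBTPS1 (0.30) and NFYB (0.24). In spheroids against 2D the list had a median of 0.26, with DDIT3 at 2.14, ERN1 (IRE1) at 1.79, NFYB at -0.51 and NFYC at -0.42. On the shGFP array 12 of 14 were above 2D (48.9% of all genes), with a median of 0.37.

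Of 26 tested genes of ER degradation, translocation and retrieval, 16 were lower than shGFP on both shTRIB1 arrays (34.7% of all genes) and 4 were higher on both (25%). By 0.5 or more on both, 2 were lower (1.69%), with a median of -0.16. HERPUD1, a scaffold of ER degradation, had a mean difference of -1.02, the signal peptidase subunit SPCS2 of -0.69, the mannosidase-like EDEM3 of 0.22 and the retrieval receptor KDELR1 of 0.21. In spheroids against 2D 22 of 26 were higher (47.3% of all genes), 10 by 0.5 or more (15.1%), with a median of 0.31, led by HERPUD1 (1.11) and SELENOS (1.04), with DERL2 (-0.42) and SPCS3 (-0.16) lowest. The ER chaperones had a median of 0.056 in the same comparison.

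Cytosolic and mitochondrial chaperones and isomerases, 22 genes, had a median of -0.018 on the shTRIB1 arrays against shGFP, with 8 lower on both (34.7% of all genes) and 6 higher on both (25%). The J protein DNAJB4 (0.87) and the small heat shock protein HSPB1 (0.38) were at the upper end, and the steroid receptor cochaperone FKBP5 (-0.87) and TRAP1 (-0.25) at the lower. The HSPB1 mean joins opposite signs, 0.77 with shTRIB1-1 and -0.013 with shTRIB1-2. In spheroids against 2D 18 of 22 were lower (50.9% of all genes; median -0.26), from FKBP5 at -1.24 and FKBP1A at -0.91 to HSPH1 at 0.34 and DNAJB4 at 0.68. The difference between these lists and the ER chaperones was not tested.

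**Figure D4:**
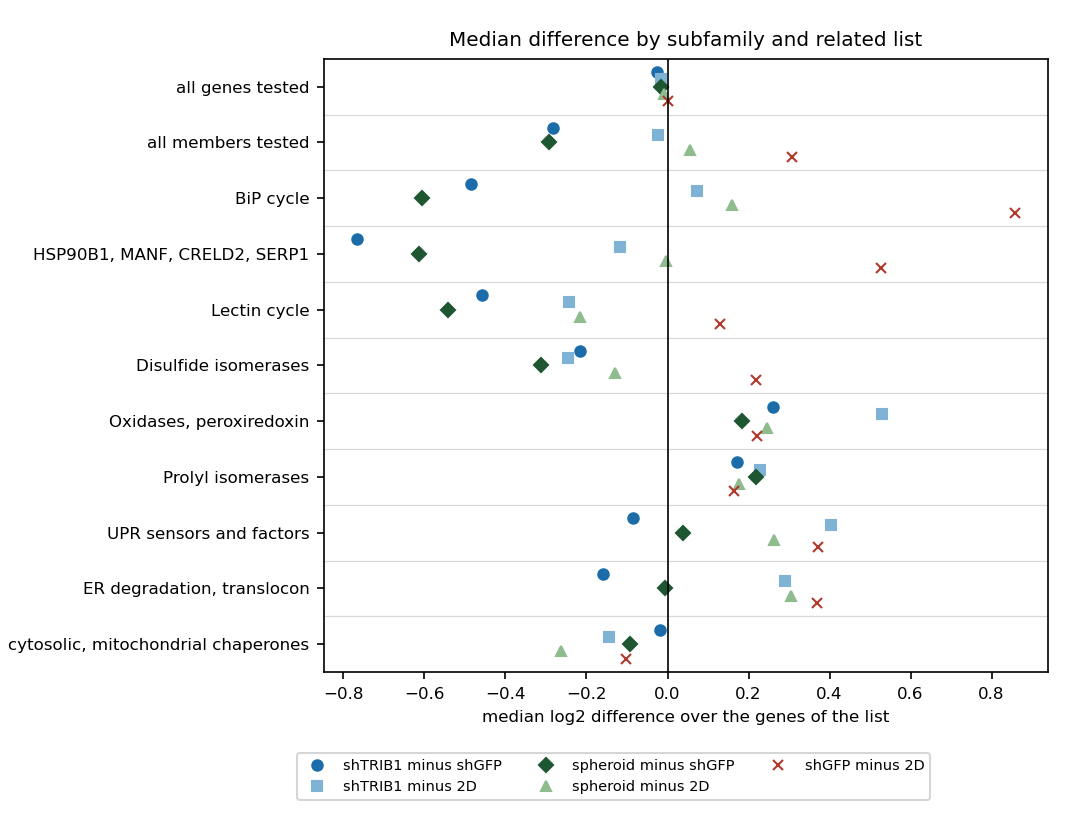
Median log2 difference over the tested genes of each subfamily, of all members, of related lists and of all genes, with 1 symbol per comparison. The BiP cycle lies at -0.48 for shTRIB1 minus shGFP and at 0.86 for shGFP minus 2D, whereas the oxidases and prolyl isomerases lie right of 0 in every comparison and all genes lie near 0.

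Probe sets of the same gene mostly gave the same direction. Of the 24 members with more than 1 probe set at a level of 6, all probe sets had 1 sign in 21 for the mean shTRIB1 difference from shGFP, the exceptions being FKBP7, QSOX1 and UGGT2. The figure was 19 for spheroid minus 2D, with CANX, DNAJC10, FKBP11, HSP90B1 and UGGT2 mixed. It was 16 for shTRIB1 minus 2D, with CANX, DNAJC10, DNAJC3, FKBP7, HSP90B1, SERP1, TMX4 and UGGT2 mixed. For spheroid minus shGFP it was 19, with ERP44, QSOX1, SERP1, TMX1 and UGGT1 mixed. For QSOX1 the third probe set was lower than shGFP on both shTRIB1 arrays, with differences of -0.82 and -0.38, while the one used here was higher.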

How the data were processed

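Total RNA of 5 PC-3 samples was labelled with biotin and hybridised to Affymetrix arrays, 1 array per sample. The authors deposited 1 linear intensity per probe set and array, made with RMA per the submitters' processing notes, with no version or settings given in the sources used here. RMA, as usually run, makes the arrays' distributions alike, and a shift shared by most genes cannot be seen. From these, the log2 of the deposited intensity was computed with no pseudocount and called the level. Of 54675 probe sets, 41097 carry 1 gene symbol in the platform annotation, 1801 several and 11777 none, and only the first kind was used. A gene was tested where its level reached 6 on any array compared. A difference counted at 0.5, on both shTRIB1 arrays where these were compared. The shTRIB1 arrays (2) were set against shGFP (1) with limma 3.58.1 in R 4.3.3, and with shGFP and 2D as controls, both over all genes tested with Benjamini-Hochberg adjustment. On simulated arrays with the spread of the shTRIB1 arrays, the first fit returned the differences put in but called none of them, so 0 calls do not show that levels were alike. Other values were computed in Python 3.11.15. The number of arrays limits the precision, and comparisons between arrays of 1 sample each have no test.

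The members, lists and tests were chosen with earlier results of these data known. Levels on all 5 arrays are given for fixed genes (HSPA5, HSP90B1, CALR, CANX, P4HB, and the ERO1 and UGGT pairs), for the 8 lowest and 4 highest members by hairpin difference, for the 6 highest and 6 lowest by spheroid difference, and for members at least 0.5 on opposite sides of shGFP and 2D. Levels of ERP44 and PDIA3 are given outside this rule and were chosen after their values were seen. Of the related lists, the 2 highest and 2 lowest genes are named. Alternatives were other level filters, probe set rules, a pseudocount of 16, centring, another reference, limma without a trend and each shTRIB1 array left out.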

Additional observations from a re-analysis of the deposited data

How the results depend on the processing

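Limma called 0 members under each of the 8 alternatives run, with smallest adjusted p-values from 0.557 to 0.9999, and at 1 or 2 residual degrees of freedom a count of 0 says nothing about stability. For spheroid minus 2D, the member median was 0.0065 without probe sets ending in _s_at or _x_at, 0.10 with each array centred, and turned to -0.066 with the mean of shGFP and 2D as the reference, where 3 members were higher and 7 lower by 0.5 or more. Lower members numbered 5 with the median over probe sets and 4 without _s_at and _x_at ones. For shTRIB1 minus shGFP, the median was -0.31 at a level filter of 8, -0.25 without _s_at and _x_at probe sets, -0.26 after centring and -0.094 against the mean of both references, where 1 member was lower by 0.5 or more. With 16 added to the intensity 1 was higher. Leaving out 1 shTRIB1 array at a time gave 10 to 13 lower members, 2 to 5 higher ones and medians from -0.30 to -0.26 against shGFP, and 1 to 2 lower members, 7 to 9 higher ones and medians from -0.015 to 0.12 against 2D. For shTRIB1 minus 2D, the median turned to 0.013 at a level filter of 8, 0.040 with the median over probe sets, 0.0092 after centring and 0.12 without shTRIB1-2. For spheroid minus shGFP, the median was -0.32 at a filter of 8, -0.27 without _s_at and _x_at probe sets and -0.25 after centring, and 2 members were higher by 0.5 or more at a filter of 8 and without those probe sets. For shGFP minus 2D, the median was 0.40 at a filter of 8, 0.33 with no filter, 0.48 with the median over probe sets, 0.35 without _s_at and _x_at ones and 0.27 with 16 added, and 0 members were lower at a filter of 8, with the median over probe sets, without _s_at and _x_at ones and with 16 added. The cause of these shifts was not tested. Of the differences of named genes, 533 kept within the range set for no shift and 102 moved. No scaling moved the median of all genes by more than 0.1. No paired analysis was possible because shGFP, 2D and spheroid have 1 array each. Genes near a level of 6 or near the levels of HBB and KLK3, such as ERO1B, TXNDC11, FKBP7, FKBP10 and FKBP11, are limited by signal over background.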
